A study of Homo sapiens with 2 samples.

Results

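The kinetochore is the protein assembly that builds on each centromere and ties a chromosome to the spindle. Its 42 genes described here encode centromeric chromatin proteins, kinetochore subunits and the spindle checkpoint. They were chosen by name from lists of these complexes, with earlier results of these data known. They were compared between the 2 expression arrays of the study. They make up 42 of 20235 genes named by 1 symbol in the deposited table. The arrays hold RNA of AGS, an established cell line grown from a human stomach adenocarcinoma. One array was from cells that received 100 nM LBH589 for 24 h. LBH589 is panobinostat, a hydroxamate that blocks most zinc-dependent histone deacetylases. The other array was the control, whose treatment the labels give as none, with no vehicle or culture time named for it. There was 1 array per condition, so no difference below has a replicate, an error or a p-value. Genes are called lower or higher by size alone, at 2-fold or more.

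A centromere is marked by nucleosomes that carry CENP-A, a variant of histone H3. On this chromatin sits a constitutive network of CENP proteins, and on that network the outer layer assembles in mitosis and grips microtubules through the NDC80 complex. Kinetochores without microtubules recruit the checkpoint proteins MAD and BUB, which hold back the anaphase-promoting complex until every chromosome is attached. Many of these genes are transcribed late in the cell cycle, so their mRNA is generally more abundant in dividing cells.

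Each of the 42 members had 1 probe set, and 5 are listed under an older symbol (CASC5 for KNL1, CENPC1 for CENPC, MLF1IP for CENPU, and SGOL1 and SGOL2 for SGO1 and SGO2). Values are deposited intensities on a linear scale, which the file header describes as gene-level RMA. All 42 passed the detection floor of 2.95, percentile 20 of all intensities. Background was set at 4.36, percentile 95 of 450 olfactory receptor probe sets, and 41 members reached it on at least 1 array and 40 on both. Across all probe sets the median intensity was 4.84 on the control array and 4.77 on the LBH589 array. All 7 epithelial markers checked, among them EPCAM and KRT18, were above background. Of 10 markers of blood, endothelial and stromal cells, 6 were below it on both arrays, including PTPRC and PECAM1, and those above it included CD68, COL1A1 and COL1A2.

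The LBH589 array had lower values for most kinetochore genes, a minority of them by 2-fold or more, and the difference was unequal between subcomplexes. Of 42 members, 11 were at least 2-fold lower after LBH589 (26.2%), where 4.86% of all 18769 detected genes were. Because the members were chosen with earlier results known, this share is descriptive and not an independent test. There were 2 members at least 2-fold higher (4.76%), against 4.9% of all detected genes, a share near the background. The log2 ratio of LBH589 over control was below 0 in 32 members (49.5% of all detected genes), and its median was -0.47 over the members and 0.00 over all detected genes. The lower members were PMF1, SPAG5, HJURP, BUB1B, CENPN, NUF2, NDC80, CENPE, KNL1, CENPF and CENPL, in order of size. The higher ones were MAD2L2 and NSL1.

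Bright genes pass 2-fold more often on these arrays. Among detected genes with a mean intensity of at least 20, 9.98% were 2-fold lower, and among members of that brightness 8 of 24 were. Below a mean of 20, 2.14% of detected genes and 3 of 18 members were 2-fold lower. The share of members was thus above that of other genes on either side of this level, which was chosen after the values were seen. Shares of genes 2-fold higher were not split by this level.

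**Figure D1:**
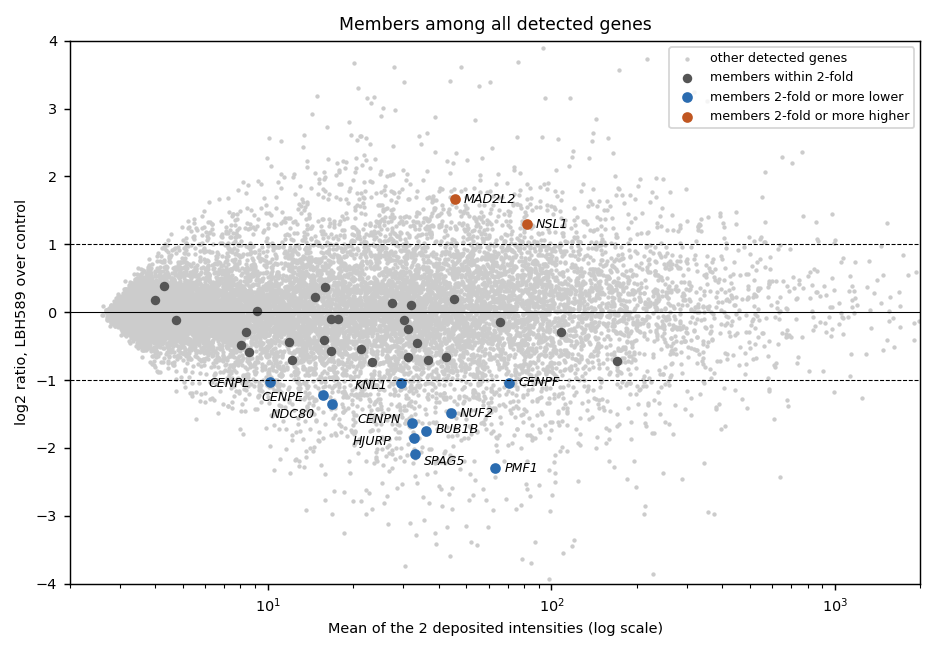
Each point is a detected gene, with the mean of its 2 intensities on a log axis and its log2 ratio of LBH589 over control on the vertical axis; dashed lines mark 2-fold, and 40 genes lie outside the plotted range. The 11 lower members run from -1.03 for CENPL to -2.30 for PMF1, and the 2 higher members are MAD2L2 at 1.67 and NSL1 at 1.30.

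Markers of dividing cells differed in the same comparison. MKI67, the antigen used to score proliferation, had 110 in the control and 14.6 after LBH589. TOP2A, the topoisomerase of dividing cells, had 184 and 72.7, and the mitotic cyclin CCNB1 had 288 and 135. PCNA, the sliding clamp of DNA synthesis, went the other way with 268 and 434. The summed intensity of these 4 markers was 850 in the control and 656 after LBH589. Their part in the kinetochore result was not tested, and in RNA from a whole culture fewer cells in mitosis and less RNA per cell cannot be told apart.

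Among the proteins that define centromeric chromatin, the loading factor was far lower and the histone itself was within 2-fold. HJURP, the chaperone that places new CENP-A into centromeres, had 51.3 in the control and 14.2 after LBH589, 3.62-fold lower. CENPA, the histone variant that it carries, had 25.2 and 17.2, a log2 ratio of -0.55. The log2 ratio of HJURP was thus lower than that of CENPA by a difference of -1.31. OIP5, a subunit of the MIS18 complex that primes centromeres for loading, had 9.20 and 7.48. CENPB, which binds a short box in alpha-satellite DNA, had 34.0 and 28.6 and stayed near its control level. All 4 genes of this group had log2 ratios below 0, with a median of -0.42.

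The constitutive centromere network has 12 members here, and the CENP-L and CENP-N pair stood lowest among them. CENPN, which reads the CENP-A nucleosome, had 48.7 in the control and 15.6 after LBH589, 3.11-fold lower. CENPL, its dimer partner, had 13.6 and 6.68, 2.04-fold lower and only just past the limit. No other member of the network was beyond 2-fold, and the median log2 ratio of the 12 was -0.37.

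The CENP-H, CENP-I, CENP-K and CENP-M proteins form another module of this network. CENPM had 15.0 and 9.19, a log2 ratio of -0.71. CENPK had 39.0 and 28.4, and CENPI had 119 and 97.5. CENPH was near background, with 3.72 on the control array and 4.87 on the LBH589 array, so it gives little information. The 3 members well above background thus had lower values after LBH589, none by 2-fold.

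None of the genes of the CENP-O group, a module that also holds CENP-P, CENP-Q and CENP-U, was beyond 2-fold. CENPO had 29.2 and 17.5, a log2 ratio of -0.74, the lowest of them. CENPU had 13.5 and 15.8. CENPP was close to background with 4.91 and 4.54, and CENPQ was below it on both arrays with 3.74 and 4.25. CENPC, the scaffold between CENP-A chromatin and the outer kinetochore, had 9.36 and 6.72. CENPT, the other bridge to the NDC80 complex, had 26.2 and 28.7, and neither of these bridging genes was beyond 2-fold.

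**Figure D2:**
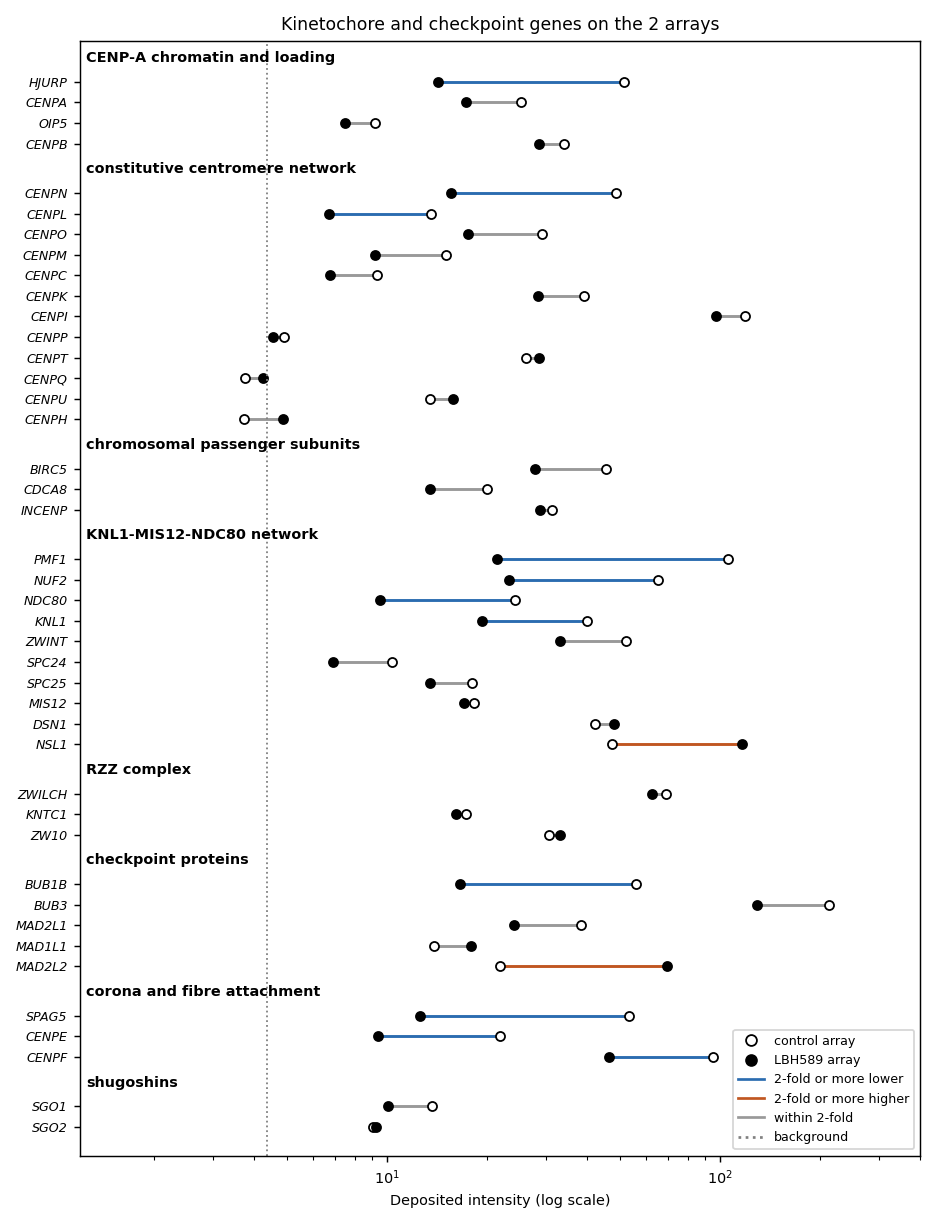
Intensities of the 42 members on a log axis, by subcomplex, with open circles for the control array and filled circles for the LBH589 array. The longest bars are those of PMF1 (105 and 21.4) and SPAG5 (53.4 and 12.5); the dotted line is the background of 4.36, which CENPQ does not reach.

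The network of KNL1, MIS12 and NDC80 complexes is the part that binds microtubules and recruits the checkpoint. Its 10 genes held 4 of the 11 lower members and 1 of the 2 higher ones. Of all detected genes 4.86% were 2-fold lower and 4.9% were 2-fold higher. Among those with a mean intensity of at least 20, 9.98% were 2-fold lower. Within the rod-shaped NDC80 complex the outer subunits passed 2-fold and the inner ones did not. NDC80 itself, whose head contacts the microtubule, had 24.2 in the control and 9.50 after LBH589, 2.55-fold lower. NUF2, its partner in the outer part of the rod, had 65.1 and 23.2, 2.80-fold lower. The inner subunits SPC24 and SPC25, which anchor the rod, were within 2-fold: SPC24 had 10.3 and 6.86, and SPC25 had 17.97 and 13.5. The log2 ratio of NUF2 was lower than that of SPC24 by a difference of -0.90, and that of NDC80 lower than that of SPC25 by -0.94. The inner subunits were also dimmer than NUF2, so for NUF2 position and signal level cannot be told apart. NDC80 was about as dim as SPC25, and dim signals limit the comparison of that pair. With intensities below 16 raised to 16, NDC80 was at -0.60 and SPC25 at -0.17. SPC24 did not reach 16 on either array.

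The 4 subunits of the MIS12 complex, which links the NDC80 complex to the centromere, had the widest spread of any small assembly here. PMF1 had 105 in the control and 21.4 after LBH589, 4.93-fold lower and the lowest log2 ratio of all members; its transcripts share exons with the PMF1-BGLAP read-through, which the probe set may not tell apart. NSL1 had 47.3 and 116, 2.46-fold higher. DSN1 had 42.2 and 48.1, and MIS12 had 18.3 and 17.0, so neither of these was far from its control level. The log2 ratios of PMF1 and NSL1 thus differed by -3.60 within a complex of 4 proteins. PMF1 was at percentile 0.490 of all detected genes and NSL1 at percentile 97.3.

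KNL1, the large scaffold that docks the BUB checkpoint proteins, had 39.9 in the control and 19.3 after LBH589, 2.07-fold lower. ZWINT, its partner, which helps bring the RZZ complex to kinetochores, had 52.2 and 33.0, a log2 ratio of -0.66. Both values lay near the 2-fold limit or inside it. Over the 10 genes of the whole network the median log2 ratio was -0.63 and the quartiles were -1.28 and -0.18.

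The RZZ complex, which recruits dynein and the MAD proteins to unattached kinetochores, was close to its control level in every subunit. KNTC1, the human ROD protein, had 17.3 and 16.1. ZWILCH had 69.1 and 62.5, and ZW10 had 30.6 and 33.1. The log2 ratios of the 3 genes lay between -0.14 and 0.11, with a median of -0.10. The SD of log2 ratios over olfactory receptor probe sets, which carry little signal, was 0.18.

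Among checkpoint proteins the genes diverged in sign. BUB1B, which encodes BUBR1, a part of the complex that inhibits the anaphase-promoting complex, had 55.9 in the control and 16.5 after LBH589, 3.38-fold lower. MAD2L1, the MAD2 protein of that inhibitor, had 38.2 and 24.0, a log2 ratio of -0.67. BUB3, which brings BUBR1 to kinetochores, had 213 and 129, a log2 ratio of -0.72. These 3 genes encode, with CDC20, the mitotic checkpoint complex, and all had lower values after LBH589, 1 of them by 2-fold or more.

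MAD1L1, the platform on which MAD2 is activated, had 13.8 and 17.9, a log2 ratio of 0.38. MAD2L2 had 21.8 in the control and 69.4 after LBH589, 3.18-fold higher and the highest log2 ratio of the members. Despite its name MAD2L2 (REV7) is best known for roles outside the spindle checkpoint, as a subunit of the translesion polymerase zeta and of the shieldin complex in DNA repair.

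All 3 genes grouped as corona and fibre attachment were 2-fold lower, where 4.86% of all detected genes were. The share was 9.98% among detected genes with a mean intensity of at least 20. SPAG5, which encodes astrin, a protein of attached kinetochores and spindles, had 53.4 and 12.5, 4.26-fold lower. CENPE, a kinesin that carries chromosomes to the spindle equator, had 21.9 and 9.37, 2.33-fold lower. CENPF, a large protein of the outer corona, had 95.2 and 46.4, 2.05-fold lower. The median log2 ratio of these 3 genes was -1.22, the lowest of the 8 groups, though it rests on few genes and on how they were grouped. Genes of related roles stand in other groups. The 3 RZZ genes were within 2-fold, and of 38 further kinetochore genes measured, described below, 4 were 2-fold lower. With intensities below 16 raised to 16, CENPE was within 2-fold at a log2 ratio of -0.45.

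None of the 3 chromosomal passenger subunits, which direct the kinase Aurora B to the inner centromere, was beyond 2-fold. BIRC5 (survivin) had 45.4 and 27.9, and CDCA8 (borealin) had 19.97 and 13.5. INCENP, the scaffold that activates the kinase, had 31.4 and 28.9, near its control level. The shugoshins protect centromeric cohesion. SGO1, which acts in mitosis, had 13.7 and 10.1, and SGO2 had 9.08 and 9.24. Neither of these groups had a member beyond 2-fold.

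**Figure D3:**
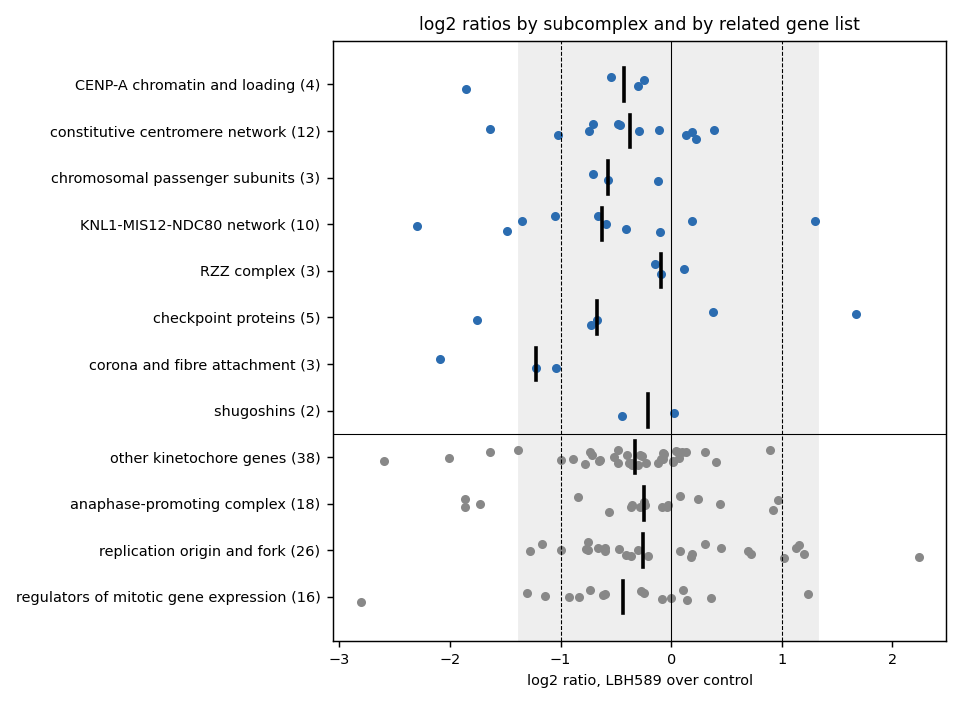
log2 ratios of LBH589 over control for the members of the 8 groups (upper rows, blue) and for 4 related gene lists (lower rows, grey), with the number of genes in brackets, black bars for medians and a grey band for the central 95% of all detected genes (-1.37 to 1.33). The corona and fibre attachment group has the lowest median, -1.22, and the RZZ complex lies closest to 0 at -0.10.

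Other genes of the pathway were listed by role, also with earlier results of these data known. Of 39 further kinetochore genes, 38 were measured, 4 were 2-fold lower and none was 2-fold higher, and the median log2 ratio was -0.33. Of all detected genes 4.86% were 2-fold lower, and 9.98% of those with a mean intensity of at least 20. CENPS was not matched to a probe set. The lower genes were PLK1, a mitotic kinase that docks at kinetochores (141 and 23.3), CENPV (38.9 and 9.62), CLIP1, which tracks microtubule plus ends (53.0 and 17.1), and KIF2C, the kinesin MCAK that corrects wrong attachments (41.4 and 15.8). AURKB, the kinase of the passenger complex, had 79.2 and 39.6 and lay just inside 2-fold. BUB1 had 87.2 and 74.2, closer to its control level than its relative BUB1B, and TTK, the kinase that starts checkpoint signalling, had 33.5 and 27.9. TRIP13, which takes the checkpoint complex apart, had 38.7 and 23.5. The 9 listed genes of the NUP107 complex and its partner AHCTF1 were within 2-fold, from NUP43 with 155 and 289 to NUP85 with 57.0 and 40.7.

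The anaphase-promoting complex is the target of the checkpoint. Of 18 genes of its subunits and partners, 3 were 2-fold lower and none was 2-fold higher, with a median log2 ratio of -0.24. Of all detected genes 4.86% were 2-fold lower, and 9.98% of those with a mean intensity of at least 20. The lower genes were ANAPC16 (39.9 and 10.9), the inhibitor FBXO5, known as EMI1 (42.0 and 11.5), and the ubiquitin-conjugating enzyme UBE2C (90.4 and 27.3). CDC20, the activator that the checkpoint complex sequesters, had 122 and 94.8.

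Genes of replication origins and forks went in both directions. Of 26 genes, 3 were 2-fold lower and 5 were 2-fold higher, with a median of -0.25 and a mean of 0.00. MCM3 and MCM4, subunits of the replicative helicase, had 72.9 and 32.4, and 64.1 and 32.1, and GINS3 had 16.1 and 6.65. The origin recognition genes ORC3 (44.6 and 99.5), ORC4 (31.8 and 72.8) and ORC5 (43.5 and 95.5) were higher, as were GINS4 (7.78 and 36.7) and RFC2 (45.0 and 91.0). Over all detected genes, 4.86% were 2-fold lower and 4.9% were 2-fold higher. With intensities below 16 raised to 16, 8.08% of all genes kept were 2-fold higher. Among those with a mean intensity of at least 20, 9.98% were 2-fold lower.

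Many kinetochore promoters are known to be held silent early in the cell cycle by the DREAM complex and driven later by MuvB with B-MYB and FOXM1, which act through the cell cycle homology region. Of 16 genes listed for this regulation, 3 were 2-fold lower (4.86% of all detected genes) and 1 was 2-fold higher (4.9%), with a median log2 ratio of -0.44. Among detected genes with a mean intensity of at least 20, 9.98% were 2-fold lower. The lower genes were FOXM1 (64.5 and 9.23), MYBL2, which encodes B-MYB (108 and 43.8), and TFDP1, the partner of E2F factors (193 and 87.6). LIN37, a subunit of MuvB, was higher with 26.1 and 61.7. LIN54, the subunit that contacts DNA, had 18.9 on both arrays, and the pocket proteins RBL1 and RBL2 had 28.3 and 18.5, and 13.1 and 14.5.

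Promoters were examined because several members were lower together. Sequences were those of RefSeq on GRCh38.p14, from 250 bases before to 50 after the annotated start site, and 35 of 42 members were matched (the first listed window of each). The 7 without a promoter were BIRC5, BUB3, CENPH, CENPL, CENPM, KNL1 and KNTC1, of which CENPL and KNL1 were 2-fold lower. Motifs were searched on both strands as TTTGAA and TTCGAA (cores of the cell cycle homology region), CCAAT (the box bound by NF-Y), TTCCCGC and TTGGCGC (E2F cores) and TTTAAA. A match describes letters in the window, and no binding was measured.

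The homology region core was frequent in the promoters of kinetochore genes. It was found in 18 of 35 members (51.4%), against 12.3% of 13610 other detected genes with a promoter in the table and 16.6% of all 27305 promoters. Of the 9 lower members with a promoter, 7 had a core, and of the other 26 members 11 had one. Within 50 bases of the start site it was found in 15 members (42.9%), against 3.39% of other detected genes. This distance was not among the measures planned in advance. The median log2 ratio was -0.66 over the 18 members with a core and -0.10 over the 17 without. These values are descriptive, since the members were chosen with earlier results known. A link between the core and the ratios was not tested. Among 9 members with a log2 ratio above 0, ZW10 was the only one with a core.

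CCAAT was found in 21 of 35 members (60.0%) and in 36.3% of other detected genes, in 4 of the 9 lower members and in 17 of the other 26. An E2F core was found in 10 of 35 members (28.6%) and in 13.0% of other detected genes, in 3 of the 9 lower members and in 7 of the other 26. TTTAAA was found in 4 of 35 members (11.4%), in 8.52% of other detected genes and in 12.3% of all promoters. It was in 2 of the 9 lower members and 2 of the other 26. Outside the members, the homology region core was in 14.6% of 704 promoters of genes 2-fold lower and in 10.4% of 737 promoters of genes 2-fold higher.

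The stretches of 250 bases before the start site are printed for 6 members, read 5′ to 3′ on the gene's strand, with matches to a homology region core or a CCAAT box on either strand in capitals (the box reads ATTGG where it lies on the opposite strand). HJURP and CENPA are shown as chaperone and cargo with unlike ratios, both with a homology region core and CCAAT. BUB1B is shown for a core without CCAAT, and PMF1, the lowest member, for CCAAT without a core. NSL1 and MAD2L2 are shown as the higher members, whose windows held none of the motifs.
HJURP promoter, GRCh38.p14 chr2:233854536-233854785, minus strand: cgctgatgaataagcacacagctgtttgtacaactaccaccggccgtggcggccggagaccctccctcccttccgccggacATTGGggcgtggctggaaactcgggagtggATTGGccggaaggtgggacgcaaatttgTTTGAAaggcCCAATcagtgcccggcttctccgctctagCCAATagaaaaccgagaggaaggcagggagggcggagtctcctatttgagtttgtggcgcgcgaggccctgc
CENPA promoter, GRCh38.p14 chr2:26785806-26786055, plus strand: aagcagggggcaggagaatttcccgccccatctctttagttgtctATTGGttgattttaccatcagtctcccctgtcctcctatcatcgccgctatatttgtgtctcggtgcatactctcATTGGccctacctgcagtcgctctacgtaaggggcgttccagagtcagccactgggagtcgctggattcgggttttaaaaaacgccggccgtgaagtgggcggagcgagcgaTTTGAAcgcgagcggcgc
BUB1B promoter, GRCh38.p14 chr15:40160819-40161068, plus strand: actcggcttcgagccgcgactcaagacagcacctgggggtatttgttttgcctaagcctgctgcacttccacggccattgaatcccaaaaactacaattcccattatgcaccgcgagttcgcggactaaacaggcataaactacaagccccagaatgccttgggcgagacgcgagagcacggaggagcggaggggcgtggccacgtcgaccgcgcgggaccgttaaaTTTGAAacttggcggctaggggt
PMF1 promoter, GRCh38.p14 chr1:156212757-156213006, plus strand: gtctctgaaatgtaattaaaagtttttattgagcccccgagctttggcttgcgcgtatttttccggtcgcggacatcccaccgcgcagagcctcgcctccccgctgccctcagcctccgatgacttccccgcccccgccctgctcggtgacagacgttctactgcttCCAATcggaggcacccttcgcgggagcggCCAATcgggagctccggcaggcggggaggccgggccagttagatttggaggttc
NSL1 promoter, GRCh38.p14 chr1:212791778-212792027, minus strand: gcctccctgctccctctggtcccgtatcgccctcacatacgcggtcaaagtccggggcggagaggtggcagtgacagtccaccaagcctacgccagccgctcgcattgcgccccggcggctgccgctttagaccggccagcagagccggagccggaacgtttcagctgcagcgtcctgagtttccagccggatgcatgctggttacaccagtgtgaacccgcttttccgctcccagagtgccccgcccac
MAD2L2 promoter, GRCh38.p14 chr1:11691560-11691809, minus strand: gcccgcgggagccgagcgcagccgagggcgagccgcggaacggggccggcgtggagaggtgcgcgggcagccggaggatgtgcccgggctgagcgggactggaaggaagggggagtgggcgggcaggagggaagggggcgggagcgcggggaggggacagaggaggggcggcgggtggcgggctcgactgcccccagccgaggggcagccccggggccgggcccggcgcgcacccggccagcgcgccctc

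In these windows the core of CENPA began 18 bases before the start site and that of BUB1B began 23 bases before it. The core of HJURP lay further out, with its first base at -111, between CCAAT boxes at -139 and -101. Other lower members had the core after the start site and so outside the printed stretch, with first bases at 4 in SPAG5 and CENPN, 17 in NUF2 and 41 in CENPF. CENPE, at a log2 ratio of -1.22, had no core, no CCAAT and no E2F core in its window, but TTTAAA 3 times.

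**Figure D4:**
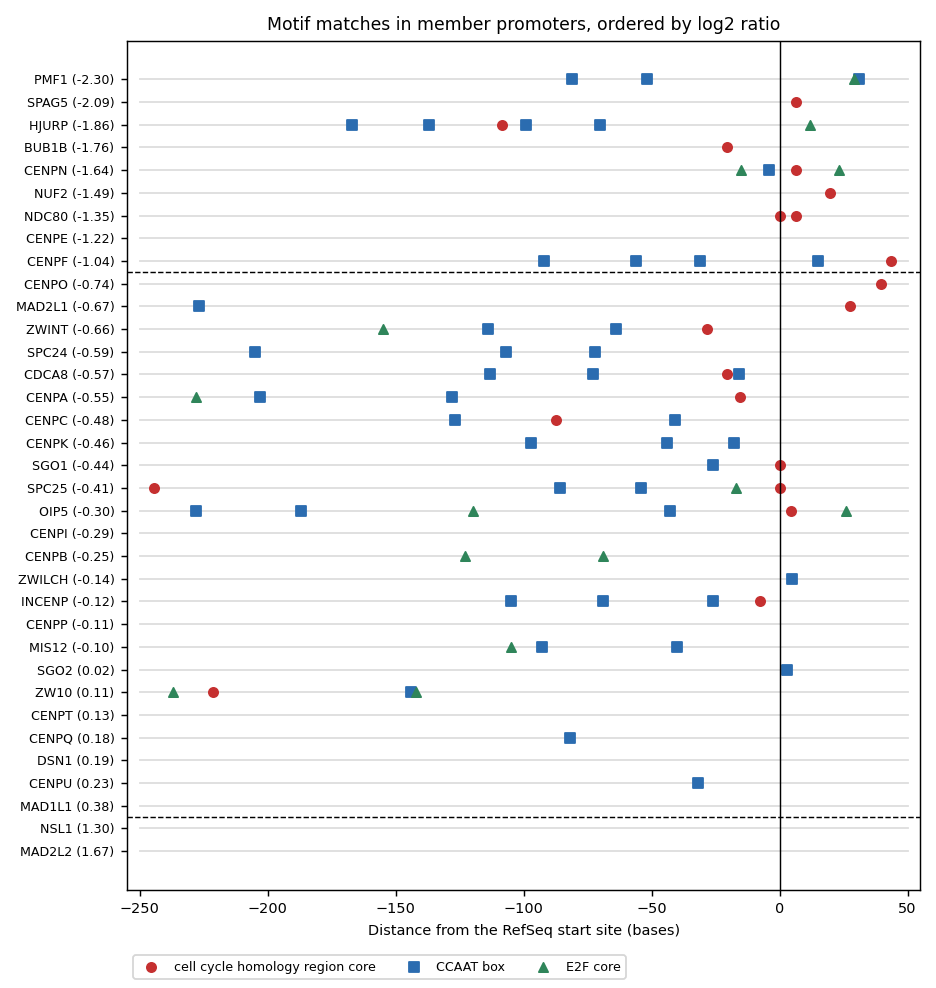
Positions of motif matches in the promoters of 35 members, ordered from the lowest log2 ratio (top, value in brackets) to the highest, with the distance from the RefSeq start site in bases; dashed lines separate the members 2-fold lower and 2-fold higher. Circles, the homology region cores, lie within 50 bases of the start site in 15 members and are absent from NSL1 and MAD2L2.

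The size of these differences depended on how dim signals were treated, since most members had intensities below 50. With 50 added to each intensity, PMF1 alone remained 2-fold lower, at a log2 ratio of -1.12, where 0.778% of all detected genes were, and no member was 2-fold higher, where 0.714% of all genes were. At a size of 1.5-fold with no such change, 18 members were lower (10.5% of all detected genes) and 2 were higher (11.7%). At 3-fold, 5 members were lower (1.74%) and 1 was higher (1.44%). With intensities below 16 raised to 16, 31 members were measured and 8 were 2-fold lower (25.8%), against 7.94% of all genes kept, and 2 were 2-fold higher, against 8.08%. NDC80 and CENPE then had log2 ratios of -0.60 and -0.45. CENPL, at 2.04-fold, did not reach 16 on either array, and its log2 ratio was -0.99 under quantile normalization.

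**Figure D5:**
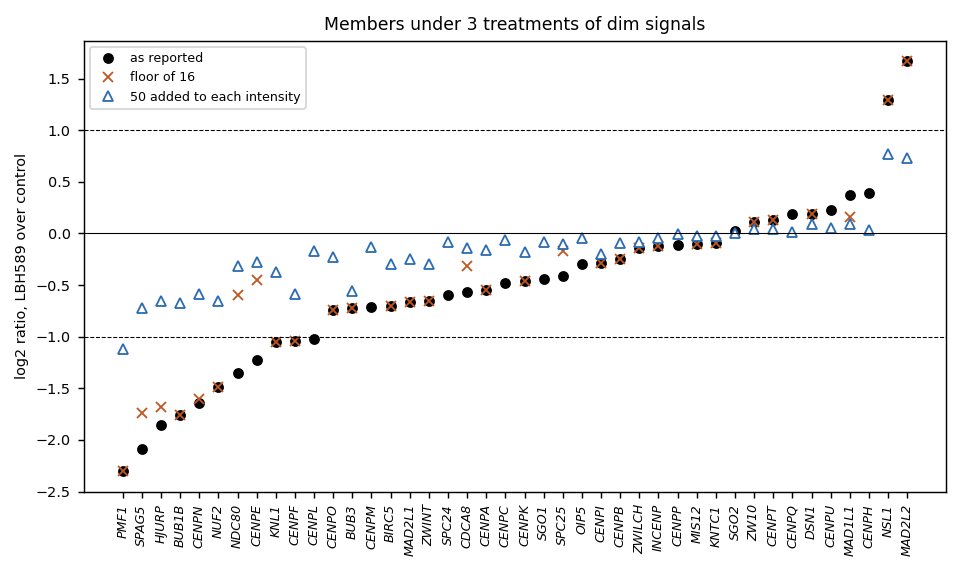
log2 ratio of LBH589 over control for each of the 42 members, ordered by the reported value (circles), with the value after raising intensities below 16 to 16 (crosses, 31 members) and after adding 50 to each intensity (triangles). With 50 added, PMF1 at -1.12 is the only member beyond 2-fold.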

How the data were processed

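Total RNA of AGS cells was labelled with biotin by an Affymetrix one-cycle procedure, per the labels' protocols, and hybridised to 1 array per condition. The deposited intensities are linear and were made by the authors with gene-level RMA, per the file headers, whereas MAS5 is named in the submitters' processing notes. The deposited fold, the authors' ratio of the treated to the control value, served only as an alternative. The values in the series matrix were identical to those of the table in all 33297 probe sets. The array design, versions and build are not stated in the labels or headers.

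Probe sets with 1 symbol (21864) were named through RefSeq accessions or symbols (GRCh38.p14), and the brightest probe set of a gene was used, giving 20235 genes. Intensities below 2.95 were raised to it before the log2 ratio, and 18769 genes reached it. Calls are by size (2-fold) with no test. Every member is named; of the other lists, genes past 2-fold and FOXM1, with further ones chosen after their values were seen. Members and lists were chosen with earlier results of these data known. The ratio step was tested on simulated data, with changes beyond 2-fold planted only in genes well above background. That checks the calculation and not dim signals or the spread between real arrays. The number of arrays limits the precision. Python 3.11.15, numpy 2.4.6, pandas 2.3.3 and matplotlib 3.10.9 were used. Some genes of the other lists are not reported here.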

Additional observations from a re-analysis of the deposited data

How the results depend on the processing

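Counts and medians were recomputed under 12 alternatives. The count of lower members stayed between 8 and 11 under centring, quantile normalization, the median over probe sets, floors at background and at 16, other detection filters, the deposited fold and the series matrix values, and no member beyond 2-fold changed sign in any of them or with 50 added. With 50 added, 1 member was lower and 0 were higher, the members' median log2 ratio was -0.12, and 280 of all genes were beyond 2-fold in place of 1831. The medians were then -0.13 for CENP-A chromatin, -0.10 for the constitutive network, -0.14 for the passenger subunits, -0.20 for the KNL1, MIS12 and NDC80 network, -0.25 for checkpoint proteins and -0.59 for the corona group. A floor of 16 gave medians of -0.32 for the passenger subunits and -1.04 for the corona group. At 1.5-fold, 18 members were lower and 4164 of all genes were beyond that size; at 3-fold, 5 members were lower, 1 was higher and 596 genes were beyond it. The loss of calls with 50 added follows from its construction, since it shrinks the ratio of dim signals. No paired analysis was possible because each condition has 1 array. With 1 array per group, signal over background and the lack of replicates limit every value.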
